A study of Mus musculus with 4 samples.

Results

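The genes described here are those of the mouse proteasome, its testis and immune paralogs, its activators and its assembly chaperones. They were taken as every row of the expression table whose gene symbol starts with Psma, Psmb, Psmc, Psmd, Psme, Psmf or Psmg, leaving out Psmc3ip, a meiotic recombination factor that shares only the prefix. This gave 48 of 23420 genes. They comprised 7 constitutive alpha subunits and the testis subunit Psma8, 7 constitutive beta subunits and 4 of their paralogs, 6 ATPases and 3 other subunits of the regulatory base, 8 subunits of the regulatory lid, 3 base chaperones, 4 activators, 1 inhibitor and 4 core chaperones. Of the 48 genes, 47 lie on autosomes and 1, Psmd10, lies on the X chromosome.

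The proteasome is the protease that degrades ubiquitinated proteins. A barrel of alpha and beta rings (the 20S core) holds the catalytic sites of Psmb5, Psmb6 and Psmb7, and a 19S cap, made of a base with an ATPase ring and of a lid, recognises, unfolds and admits the substrate. Male germ cells build a testis form in which Psma8 takes the place of Psma7, and the activator Psme4 (PA200) is also associated with spermatogenesis, while Psmb8, Psmb9 and Psmb10 replace the constitutive catalytic subunits in the immunoproteasome. In pachytene spermatocytes the X and Y chromosomes are held silent by meiotic sex chromosome inactivation (MSCI), so a proteasome gene on the X chromosome falls under this silencing while its autosomal partners do not.

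RNA-seq was done on wild-type (WT) pachytene spermatocytes that were sorted by FACS from testes of C57BL/6 males (23 weeks old) and kept in culture for 24 h. The 2 Ctrl libraries came from cells kept with DMSO and the 2 AZ20 libraries from cells kept with 10 μM AZ20, an inhibitor of ATR, the DNA damage response kinase whose role in keeping the sex chromosomes silent the study addressed. According to the methods, the cells of a mouse were divided between the conditions, and the sorted cells were cultured without their supporting tissue. Neither the methods nor the labels state that equal replicate numbers share a mouse. The replicate pairs below assume it. Levels are given as TPM, a measure of transcript abundance that is scaled to gene length and to a fixed total in each library.

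The libraries held between 13039143 and 18980481 recovered reads on genes. All 10 of the pachytene markers checked, such as Sycp3 and Ldhc, were above 1 TPM in every library, and their summed level was 11609 to 11899 TPM. Markers of somatic cells and spermatogonia were low, and those of round spermatids were higher. The summed level was 0.647 to 2.23 TPM for 8 Sertoli cell markers, 0.866 to 2.31 TPM for 6 Leydig cell markers, 7.99 to 20.5 TPM for 7 spermatogonial markers and 7.82 to 13.6 TPM for 12 macrophage markers. The 6 round spermatid markers summed to 365 and 149 TPM in Ctrl and to 771 and 251 TPM in AZ20 (replicates 1 and 2), and none of them passed the test. In bulk RNA, fewer cells of a type and less RNA per cell cannot be told apart. With 2 libraries a group, an exact permutation test cannot give a p below 0.333, so single shares below are described by their spread, and genes were tested with limma over all 10316 genes with a mean above 1 TPM in either group.

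The stretch upstream of Psmd10 is shown first, because Psmd10 was the only proteasome gene that passed the test. On the X chromosome its RefSeq start lies 195 bases from that of Atg4a, an autophagy protease gene transcribed in the opposite direction. The 178 bases between the annotated exons of both genes, at chrX:140956729-140956906 (GRCm38.p6), are taken from RefSeq and given on the minus strand, toward Psmd10, with matches to CCAAT on the opposite strand in capitals.
Psmd10 to Atg4a: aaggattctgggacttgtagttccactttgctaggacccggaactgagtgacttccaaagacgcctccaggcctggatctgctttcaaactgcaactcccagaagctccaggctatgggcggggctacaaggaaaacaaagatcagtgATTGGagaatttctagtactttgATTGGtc
The capitals mark 2 matches, whose last bases lie 43 and 20 bases before the start of Psmd10.

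A further 3 stretches stand for the autosomal subunits and carry the other motifs searched. They are from RefSeq (GRCm38.p6), on the plus strand, and those of Psmc6 and Psmd12 were cut where an annotated exon begins. Psmb6, the subunit with the highest level, lies on chromosome 11 (chr11:70525207-70525356). Psmc6, the lowest of the ATPases, lies on chromosome 14 (chr14:45329674-45329787). Psmd12, the highest of the 8 lid genes with the prefix, lies on chromosome 11 (chr11:107479378-107479483). Capitals mark TGACNNNGC in Psmb6, an element of the kind bound by NRF factors, and CGGAAG, a core bound by ETS factors, in Psmc6 on the plus strand and in Psmd12 on the opposite strand.
Psmb6: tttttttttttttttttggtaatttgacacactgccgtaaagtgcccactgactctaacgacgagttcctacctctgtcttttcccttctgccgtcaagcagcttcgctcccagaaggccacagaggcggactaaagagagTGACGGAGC
Psmc6: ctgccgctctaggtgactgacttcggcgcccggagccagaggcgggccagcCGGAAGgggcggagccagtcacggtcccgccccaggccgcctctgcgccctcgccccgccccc
Psmd12: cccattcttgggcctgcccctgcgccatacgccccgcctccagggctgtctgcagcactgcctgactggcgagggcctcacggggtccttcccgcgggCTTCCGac
The stretch upstream of Psmd10 had a GC content of 48.9% with 3 CpG sites, against 48.0% with 7 for Psmb6, 78.1% with 13 for Psmc6 and 71.7% with 8 for Psmd12. These CpG counts are over stretches of unequal length, 178, 150, 114 and 106 bases in that order.

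For 40 of the 48 genes RefSeq promoters (43 in all, each of 250 bases before the start and 50 after it) were found, and both strands were searched. CGGAAG was in 53.49% of them (23 promoters of 22 genes), against 16.85% of all 32851 promoters and 33.84% of the promoters of genes tested here. CCAAT was in 32.56% of the proteasome promoters, against 37.41% of all promoters and 39.47% of those of tested genes. TGACNNNGC was in 13.95%, against 12.39% and 14.45%. None of the motifs contains another, and a match is a description of the sequence and not of binding.

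Psmd10 was low in Ctrl cells and rose in AZ20. Psmd10 (gankyrin, chrX:140948429-140956728, minus strand) encodes an ankyrin repeat chaperone that helps to assemble the ATPase ring of the 19S base. Its level was 2.52 and 2.26 TPM in the Ctrl libraries, from 37 and 38 reads, and 89.9 and 81.0 TPM in the AZ20 libraries, from 1903 and 1547 reads. Both AZ20 libraries lay far above both Ctrl libraries, and the rise was nearly equal in the 2 replicate pairs, at 4.69 and 4.65 on the log2(TPM + 1) scale. The fitted log2 change was 4.67 ± 0.21 (SE, 95% interval 4.16 to 5.18, n = 2 libraries a group, limma adjusted p = 5.02e-05). Psmd10 was not called when either AZ20 library was left out, with log2 changes of 4.60 and 4.75 and limma adjusted p of 0.0902 and 0.0791.

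Psmd10 was 1 of 44 tested proteasome genes that were called higher, where a call is a change of at least 2-fold with a limma adjusted p under 0.05. The share of all tested genes called higher was 2.28%, and the share called lower was 0.0485%. No proteasome gene was called lower, and none had an unadjusted p under 0.05 in that direction with limma. Among the 341 X-linked genes tested, 63.3% were called higher, so a call for an X-linked gene was common. Within these genes Psmd10 ranked 60th by the size of its change, 19th by its Ctrl level and 27th by its AZ20 level. The median X-linked gene had a log2 change of 2.61 and levels of 0.0944 TPM in Ctrl and 6.45 TPM in AZ20.

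The 2 autosomal base chaperones gave a scale for these levels. Psmd5 (S5B), which holds an ATPase pair during assembly, was at 36.1 and 47.1 TPM in Ctrl and at 52.0 and 39.1 TPM in AZ20. Psmd9 (p27), which acts on another ATPase pair, was at 32.6 and 41.3 TPM in Ctrl and at 40.7 and 40.7 TPM in AZ20. The groups overlapped for both genes. Psmd10 therefore made up 3.54% and 2.49% of the summed TPM of the 3 chaperones in Ctrl, and 49.2% and 50.4% in AZ20. The sum went from 80.9 ± 13.8 TPM in Ctrl to 172 ± 15.4 TPM in AZ20 (SD, n = 2). Paaf1, a further base chaperone, was not analysed here.

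**Figure D1:**
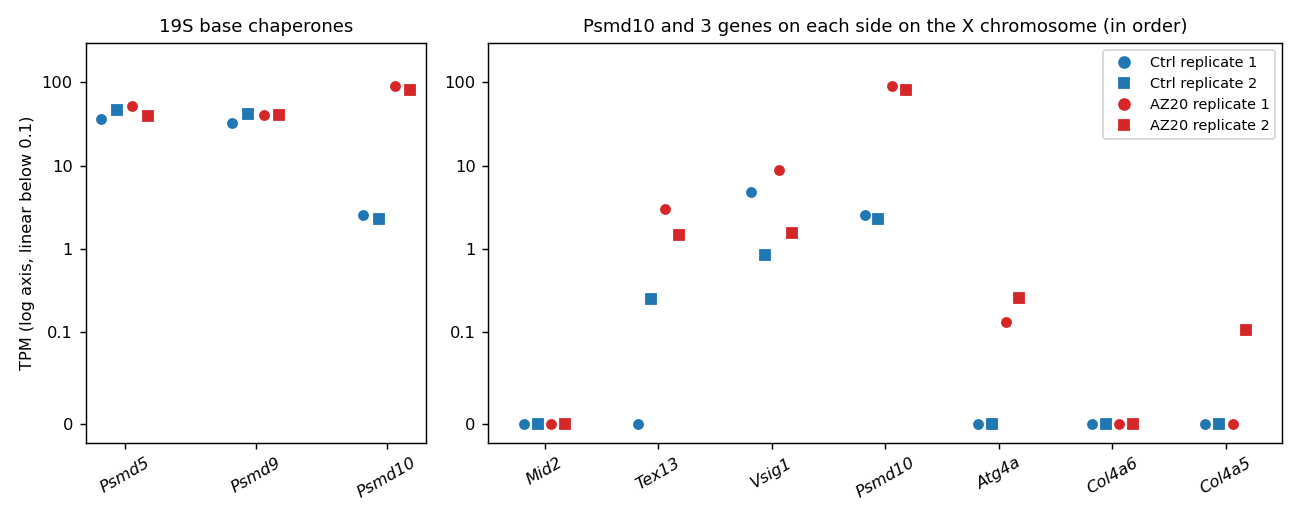
TPM of the 3 base chaperones (left) and of Psmd10 with the 3 genes of the table on each side of it on the X chromosome (right), on a log axis that is linear below 0.1 TPM. Each symbol is 1 library. Psmd10 lies below Psmd5 and Psmd9 in both Ctrl libraries and above them in both AZ20 libraries, while none of the 6 neighbouring genes exceeds 8.75 TPM.

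The genes around Psmd10 stayed at low levels in both groups. Atg4a, which starts next to Psmd10 and is transcribed away from it, was listed at 0 in both Ctrl libraries and had 0.130 and 0.252 TPM in AZ20, from 4 and 7 reads. It fell under the level needed for the test. On the other side, Vsig1, an immunoglobulin superfamily gene, was at 4.80 and 0.846 TPM in Ctrl and at 8.75 and 1.54 TPM in AZ20. Its 2 replicates differed more than the groups did, in the same direction in both groups. Within each replicate pair the ratio of AZ20 to Ctrl was 1.82. Vsig1 was not called, also when the pairs were fitted as a block. Tex13, a testis-expressed gene, was at 0 and 0.246 TPM in Ctrl and at 3.02 and 1.44 TPM in AZ20, with a log2 change of 1.49 and a limma adjusted p of 0.187. When the replicate pairs were fitted as a block, its adjusted p in limma was 0.0138, which made it a call. That block gave 447 calls over all genes tested, against 235 higher and 5 lower in the main fit. Mid2 and Col4a6 were listed at 0 in every library, and Col4a5 reached 0.106 TPM in 1 AZ20 library. Of the 6 neighbours 2 were tested and none was called, with 1 at an unadjusted p under 0.05 in limma.

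**Figure D2:**
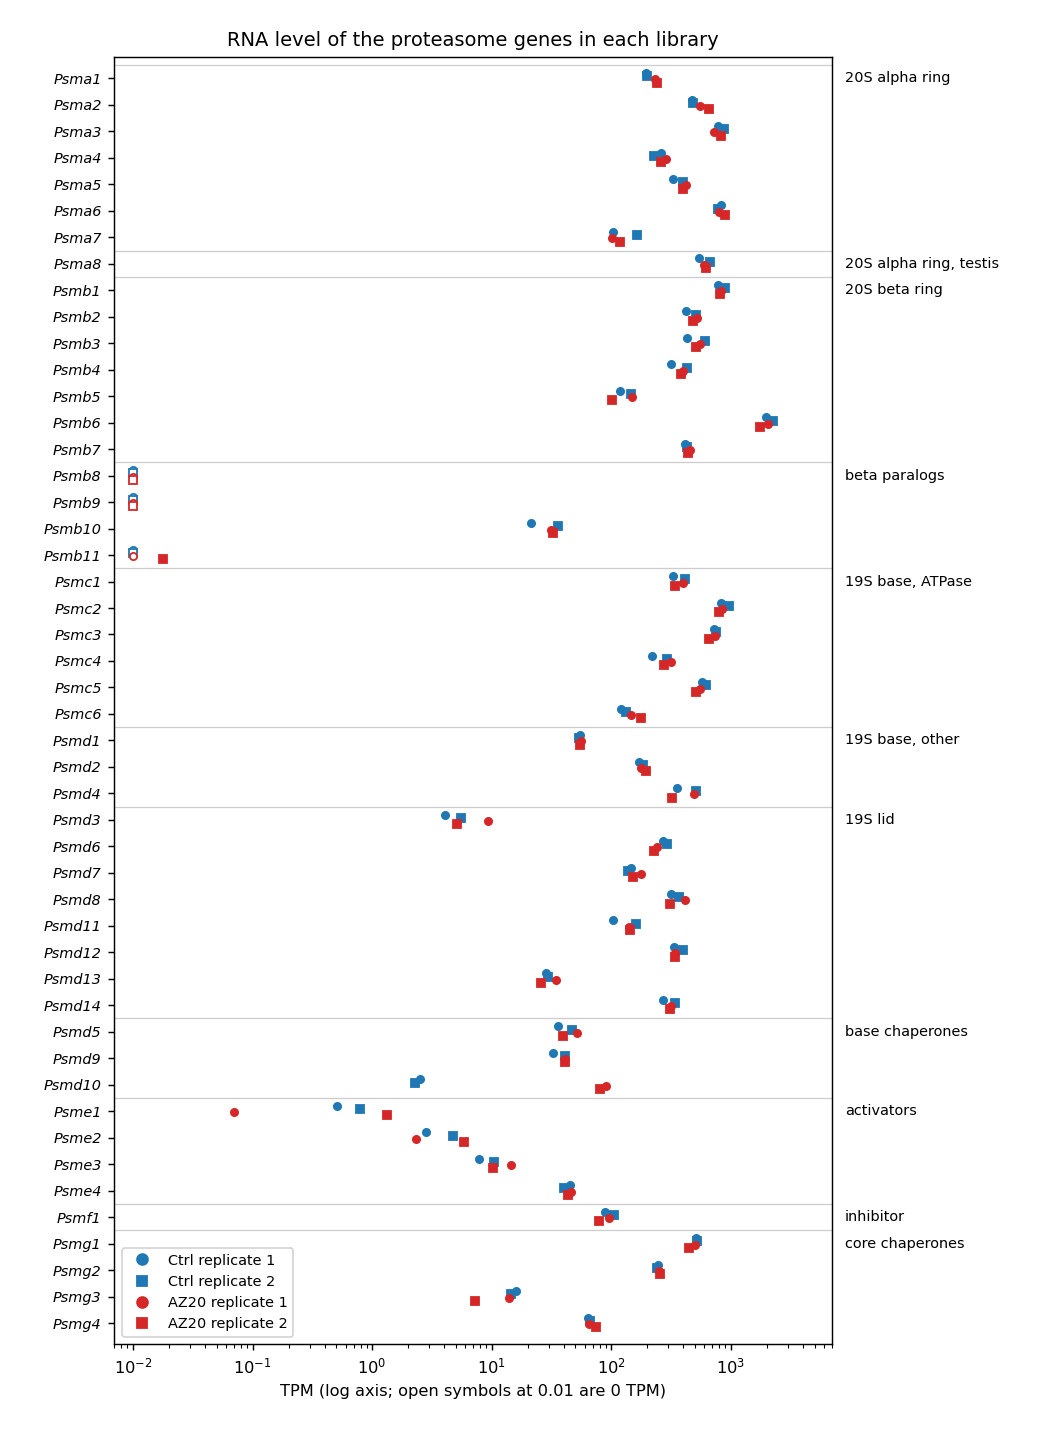
TPM of each of the 48 proteasome genes in the 4 libraries, on a log axis, ordered by role. Psmd10 is the gene whose Ctrl and AZ20 symbols stand apart, Psmb6 has the highest level, Psmd3 lies far below the other lid genes, and Psmb8 and Psmb9 are listed at 0 in all libraries.

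The RNAs of the 20S core were abundant and unequal. The 14 constitutive core genes summed to 7405 to 8376 TPM and the 17 base and lid genes to 4835 to 5661 TPM. The 48 genes together held 1.39% to 1.58% of all TPM, and the 44 tested ones had a median level at the 92.7th percentile of the tested genes. The 14 constitutive core subunits had median levels of 421 and 455 TPM in the Ctrl libraries and of 489 and 459 TPM in the AZ20 libraries. Although each of these subunits enters the particle in the same number, their RNA differed widely. Psmb6 was highest, at a mean of 2000 TPM over the 4 libraries, and Psma7 was lowest, at 122 TPM, a 16.4-fold range. The SD of log2 TPM over the 14 genes was 1.11 ± 0.0377 in Ctrl and 1.11 ± 0.0246 in AZ20 (SD between libraries, n = 2).

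Psma7 was low where its testis paralog was high. Psma8, the alpha subunit of the testis proteasome, was at 542 and 673 TPM in Ctrl and at 591 and 619 TPM in AZ20. Psma7 (chr2:180036374-180042433, minus strand) was at 104 and 165 TPM in Ctrl and at 102 and 118 TPM in AZ20. Psma8 exceeded Psma7 in all 4 libraries, by 5.23 and 4.08 times in Ctrl and by 5.79 and 5.25 times in AZ20. The share of Psma8 in the sum of both genes was 82.1% ± 2.57 in Ctrl and 84.6% ± 0.901 in AZ20 (SD, n = 2, exact two-sided permutation p = 0.333, the smallest possible). The log2 change of Psma8 was 0.00 (95% interval -0.37 to 0.38, limma adjusted p = 0.999), and that of Psma7 was -0.25 (95% interval -0.84 to 0.33, limma adjusted p = 0.843). When the TPM of Psma8 was added to that of Psma7, the SD of log2 TPM over the core fell to 1.01 in Ctrl and 0.957 in AZ20, and Psmb5 became the lowest position, at 128 TPM. The coding sequences of the pair shared 74.8% of their bases, with no identical run over 17 bases, and neither transcript shared a run of 75 bases with another annotated gene.

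The catalytic subunits of the core were at unequal levels. Psmb6, with caspase-like activity, was at 1964 and 2250 TPM in Ctrl and at 2045 and 1740 TPM in AZ20. Psmb7, with trypsin-like activity, was at 417 and 431 TPM in Ctrl and at 459 and 438 TPM in AZ20. Psmb5, with chymotrypsin-like activity, was at 118 and 145 TPM in Ctrl and at 148 and 101 TPM in AZ20. The order of the 3 genes was the same in all 4 libraries, and only for Psmb7 did the groups not overlap, at a log2 change of 0.08 ± 0.14 (SE, n = 2, limma adjusted p = 0.927). Of the runs of 75 bases in the Psmb5 transcript, 40.0% also occur in another annotated gene, and only unique alignments were kept. Such shared runs were found in 18 of the 48 genes and exceeded 20% in 7. For Psmb7, 34.9% of the exon bases are also exons of Nek6.

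Of the immune and thymus paralogs, only Psmb10 was above the level of a few reads. Psmb8 and Psmb9, the inducible partners of Psmb5 and Psmb6, were listed at 0 in all 4 libraries. At these depths and with annotated exon lengths, 3 reads would give 0.127 to 0.183 TPM for Psmb8 and 0.153 to 0.220 TPM for Psmb9, which allows shares of at most 0.155% of Psmb8 with Psmb5 and 0.0112% of Psmb9 with Psmb6. Psmb11, the thymus subunit, had 1 read in AZ20 replicate 2 and none in the other libraries. Psmb10, the inducible partner of Psmb7, was present at 21.2 and 35.8 TPM in Ctrl and at 31.5 and 32.7 TPM in AZ20. It formed 6.27% ± 2.0 of the sum with Psmb7 in Ctrl and 6.68% ± 0.380 in AZ20 (SD, n = 2, exact two-sided permutation p = 1). The 12 macrophage markers summed to 7.82 and 13.6 TPM in Ctrl and to 11.7 and 9.61 TPM in AZ20. Their sum was lowest and highest in the same libraries as Psmb10, but the 2 AZ20 libraries went in the opposite order. H2-Ab1 accounted for most of that sum, at 6.48 to 12.9 TPM, and 4 of the 12 markers were at 0 in every library. The spermatogonial sums (7.99 and 20.5 TPM in Ctrl, 12.7 and 14.9 TPM in AZ20) followed the order of Psmb10 in all 4 libraries. So did the Leydig cell sums (0.866 and 2.31 TPM in Ctrl, 1.60 and 2.11 TPM in AZ20). The Sertoli cell and round spermatid sums did not. Uchl1 alone made up most of the spermatogonial sum, at 7.60 to 20.1 TPM. Of the 6 Leydig cell markers 5 were at 0 in every library, so that sum was the level of Star alone. The part of any of these markers in the level of Psmb10 was not tested.

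**Figure D3:**
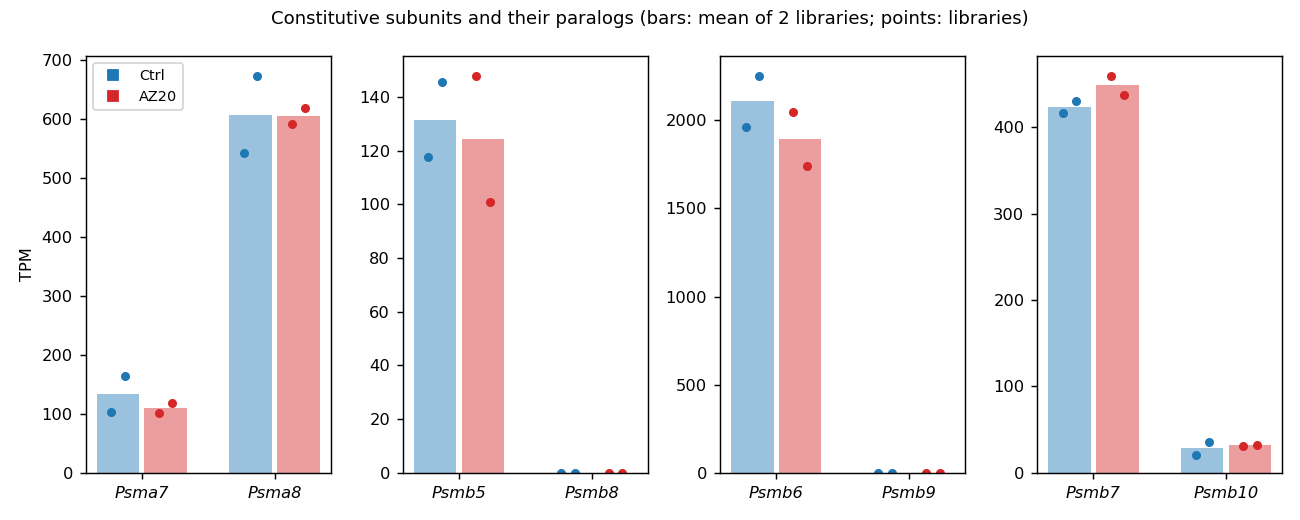
TPM of constitutive subunits and their paralogs, with bars for the mean of the 2 libraries of a group and points for the libraries, on linear axes that differ between panels. Psma8 stands above Psma7 in every library, Psmb8 and Psmb9 are listed at 0, and Psmb10 reaches 21.2 to 35.8 TPM beside 417 to 459 TPM for Psmb7.

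The ATPases of the 19S base were at levels close to those of the core, with medians of 453 and 518 TPM in Ctrl and of 471 and 424 TPM in AZ20. These 6 genes, whose products unfold the substrate, ranged from Psmc2 at a mean of 856 TPM to Psmc6 at 143 TPM, a 5.97-fold range, and the SD of their log2 TPM was 1.07 ± 0.0345 in Ctrl and 0.874 ± 0.0761 in AZ20 (SD between libraries, n = 2). Psmc2 was at 829 and 955 TPM in Ctrl and at 841 and 800 TPM in AZ20. Psmc6 was at 119 and 133 TPM in Ctrl and at 146 and 176 TPM in AZ20. The Psmc6 libraries of the groups did not overlap, but its log2 change of 0.34 ± 0.18 (SE, n = 2) had a limma adjusted p of 0.678. Of the other base subunits, the scaffold Psmd1 was at 54.2 to 55.6 TPM over all libraries, the scaffold Psmd2 at 170 to 195 TPM and the ubiquitin receptor Psmd4 at 323 to 511 TPM.

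The lid held Psmd3, which had the lowest level of the constitutive core, base and lid genes. Psmd12 was the highest of the 8 lid genes, at 337 and 401 TPM in Ctrl and at 341 and 342 TPM in AZ20. The lid subunit Shfm1 (Sem1) was higher, at 511 and 512 TPM in Ctrl and at 510 and 552 TPM in AZ20. It lacks the prefix and is not among the 8 genes to which all lid values here refer. Psmd14, the deubiquitinase of the lid, was at 273 and 343 TPM in Ctrl and at 316 and 308 TPM in AZ20. Psmd3 (chr11:98682554-98695979, plus strand), a structural subunit with a PCI domain, was at 4.06 and 5.57 TPM in Ctrl and at 9.39 and 5.11 TPM in AZ20. Psmd3 was 58.9-fold below Psmd12 by the mean of all libraries, and the next lowest, Psmd13, was at 29.6 TPM. The SD of log2 TPM over the lid was 2.21 in Ctrl and 2.03 in AZ20, and 1.31 and 1.26 without Psmd3. No run of 75 bases in the Psmd3 transcript occurred in another annotated gene, and none of its exon bases belonged to another RefSeq-linked gene.

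Psme4 led the activators. Psme4 (PA200, chr11:30771726-30880361, plus strand), which opens the core without ATP, was at 45.0 and 40.6 TPM in Ctrl and at 46.4 and 43.1 TPM in AZ20. It formed 75.9% ± 5.88 of the activator TPM in Ctrl and 72.3% ± 1.36 in AZ20 (SD, n = 2, exact two-sided permutation p = 0.667). Psme3, the nuclear activator PA28 gamma, was at 7.87 and 10.5 TPM in Ctrl and at 14.6 and 10.2 TPM in AZ20. Psme2, a subunit of the interferon-inducible activator, was at 2.84 and 4.70 TPM in Ctrl and at 2.32 and 5.85 TPM in AZ20. Its partner Psme1 had 5 and 9 reads in Ctrl and 1 and 17 reads in AZ20, or 0.0704 to 1.33 TPM, and was not tested. In both genes the replicates differed by more than the group means did, and 51.7% of the runs of 75 bases in Psme2 are shared with its copy Psme2b. Psmf1 (PI31), which binds the core and is named as its inhibitor, was at 88.4 and 105 TPM in Ctrl and at 95.6 and 78.5 TPM in AZ20.

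The 4 chaperones that build the core ring differed widely in level among themselves. Psmg1, which pairs with Psmg2, was at 511 and 519 TPM in Ctrl and at 497 and 443 TPM in AZ20. Psmg2 was at 245 and 243 TPM in Ctrl and at 251 and 255 TPM in AZ20. Psmg3 was at 16.1 and 14.4 TPM in Ctrl and at 14.0 and 7.27 TPM in AZ20, and its partner Psmg4 was at 64.1 and 65.9 TPM in Ctrl and at 65.1 and 74.0 TPM in AZ20. Psmg3 had the lowest log2 change of all 44 tested genes, -0.54 ± 0.32 (SE, n = 2, limma adjusted p = 0.723). AZ20 replicate 2 alone made most of it, with changes of -0.18 in the first pair and -0.89 in the second.

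None of the 43 autosomal proteasome genes tested was called between AZ20 and Ctrl with limma, and none reached an unadjusted p of 0.05 in either direction. The background for these genes was 0.101% of the 9926 autosomal genes tested called higher. Their log2 changes ran from -0.54 (Psmg3) to 0.47 (Psmd3), with a median of 0.059 beside a median of 0.059 over all autosomal genes tested. The median size of the change without its sign was 0.106, against 0.205 for all autosomal genes, which were lower in level and had a larger median SE (0.263 against 0.176). In 12 of the 43 genes the groups did not overlap, beside 36.2% of all autosomal genes tested. Both pairs were higher in AZ20 for 12 genes and both lower for 6, while the pairs went opposite ways for 25 genes (58.1%, against 45.9% of all autosomal genes tested).

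The largest changes among the autosomal genes were under 2-fold, and those of Psmg3, Psmd3 and Psme3 were unequal between the pairs. Psmd3 had a log2 change of 0.47 ± 0.33 (SE, n = 2, limma adjusted p = 0.780), with 1.04 in the first pair and -0.10 in the second. Psme3 had 0.39 ± 0.27 (limma adjusted p = 0.779), with 0.81 and -0.04. AZ20 replicate 1, in which both genes were highest, was also the library with the highest summed round spermatid markers (771 TPM). Ctrl replicate 1, in which both genes were lowest, had the next highest sum (365 TPM). The part of these markers in the levels was not tested. The smallest adjusted p among the autosomal genes was that of Psma2, an alpha subunit, which was at 474 and 479 TPM in Ctrl and at 553 and 658 TPM in AZ20 (log2 change 0.34 ± 0.15, limma adjusted p = 0.588). At the other end, Psmd6, a lid subunit, was at 268 and 293 TPM in Ctrl and at 241 and 225 TPM in AZ20 (log2 change -0.27 ± 0.15, limma adjusted p = 0.713). The pairs went the same way for Psma2 (0.22 and 0.46) and for Psmd6 (-0.15 and -0.38). The 95% intervals of the log2 change reached past 2-fold for Psmg3 (-1.30 to 0.22), Psmd3 (-0.32 to 1.26), Psme3 (-0.26 to 1.04) and Psme2 (-0.949 to 1.005).

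**Figure D4:**
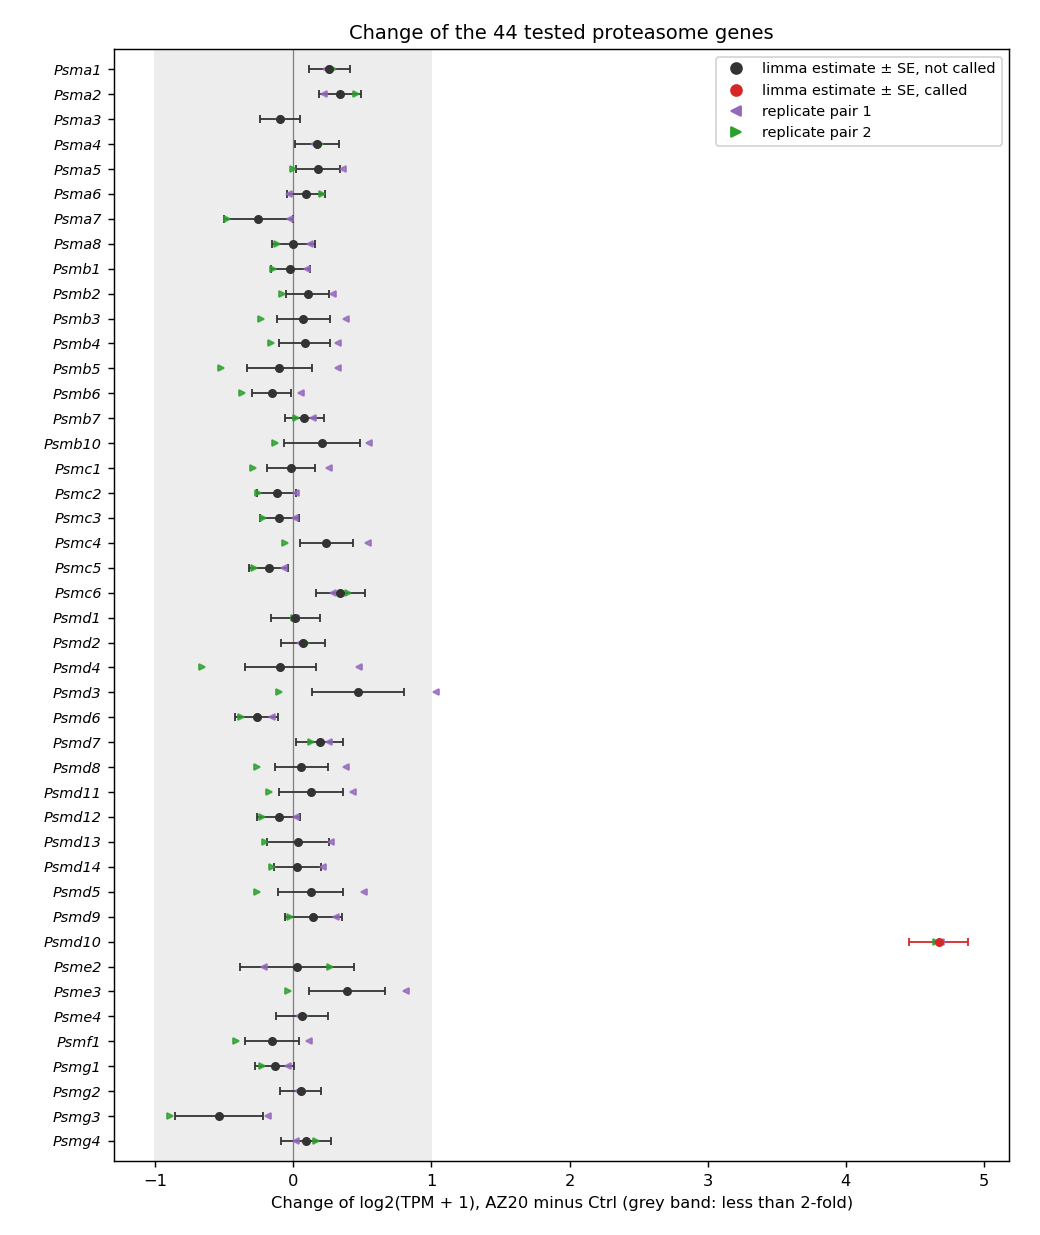
Change of log2(TPM + 1), AZ20 minus Ctrl, for the 44 tested proteasome genes, as the limma estimate with its SE and as the difference within each replicate pair. The grey band covers less than 2-fold. Psmd10 lies at 4.67, with both pairs close together, and all 43 other estimates lie within the band between -0.54 and 0.47.

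Partners of the proteasome that carry other symbols were examined from a list of 32 genes, of which 31 were in the table and 29 were tested. With limma 1 was called higher, none lower, and 6 had an unadjusted p under 0.05. Over all 10316 genes tested, 2.28% were called higher and 945 had an unadjusted p under 0.05 in limma. Among the 6 partners were the sex-linked Uba1y, Uba1 and Ubqln2, and the others are autosomal. The called gene was Uba1y, the Y-linked copy of the ubiquitin-activating enzyme, which was listed at 0 in both Ctrl libraries and was at 3.27 and 2.22 TPM in AZ20, from 189 and 116 reads. Its mean AZ20 level was at least 39.2-fold higher than 3 reads in each Ctrl library would give (limma adjusted p = 0.0378). Uba1y was no longer a call when any 1 of the 4 libraries was left out, with quantile normalization or with either other filter on low TPM. Its X-linked homolog Uba1 was at 0.690 and 0 TPM in Ctrl and at 2.47 and 3.60 TPM in AZ20 (log2 change 1.62, limma adjusted p = 0.134). Uba1 became a call with the replicate block (limma adjusted p = 0.00356), which raised the calls over all genes tested to 447. Only unique alignments were kept, so a read that aligns to both homologs would not be counted, and how many did was not measured. Ubqln2, an X-linked shuttle factor that carries ubiquitinated proteins to the proteasome, was listed at 0 in Ctrl and was at 0.765 and 2.36 TPM in AZ20 (limma adjusted p = 0.369).

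The lowest change of that list was in Ubb, a polyubiquitin gene. It was at 4523 and 6665 TPM in Ctrl and at 3894 and 3394 TPM in AZ20 (log2 change -0.59 ± 0.19, SE, n = 2, limma adjusted p = 0.366). Both AZ20 libraries lay below both Ctrl libraries, without passing the test. The proteasome maturation factor Pomp, which acts at the closing of the beta ring, was at 847 and 843 TPM in Ctrl and at 799 and 905 TPM in AZ20, and the transcription factor Nfe2l1 (NRF1), known to drive proteasome genes, was at 4.54 and 5.56 TPM in Ctrl and at 4.78 and 4.27 TPM in AZ20.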

How the data were processed

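Pachytene spermatocytes from 4 libraries were analysed, grouped by the labels into Ctrl and AZ20, with 2 each. Per the methods and the processing notes, the authors used Trimmomatic 0.39 for trimming and STAR 2.5.4b for alignment to GRCm38, kept unique alignments, counted reads with featureCounts 2.0.1 on the UCSC refGene annotation and deposited TPM, 1 column for each library. Whether counting used strand is not given in the sources used here. The labels give a culture temperature of 34 °C and the methods 32 °C.

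In all, 92 rows without a gene name was left out. Whole reads were recovered from the TPM for 16839 of 16857 genes above 0 (99.9%), because all libraries use 1 length per gene. A factor common to the 4 read numbers was settled from annotated transcript lengths, which matched for 12328 genes, so single read numbers and depths are estimates. Genes were placed with GENCODE M21 and RefSeq. Genes with a mean TPM above 1 in either group were tested with limma 3.58.1 (R 4.3.3) on log2(TPM + 1) with an intensity trend, two-sided, with Benjamini-Hochberg adjustment over all tested genes, where fold changes understate those of low genes. A call needed 2-fold and an adjusted p under 0.05. The script was tested on simulated data. Python 3.11.15 was used for the rest, with scipy 1.17.1, numpy 2.4.6 and pandas 2.3.3. The 95% intervals of log2 changes are those of limma and rest on the spread between libraries, while floors of 3 reads cover counting error only.

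By the methods, each mouse gave cells to both conditions. The correlation of the deviations of same-numbered libraries from their group mean was 0.231 for 9926 autosomal genes and 0.110 for 43 autosomal proteasome genes. The main fit had no replicate term. Where pairs share a mouse, p-values cover 2 mice.

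The genes, lists and tests were chosen with earlier results of these data known. By rule, values were given for Psmd10 and its neighbours, for paralogs, catalytic subunits, activators and chaperones, for the highest and lowest subunits of the core, base and lid, and for the 3 highest and 3 lowest changes, and for called, sex-linked and extreme partners. Psma2, Psmd1, Psmd2, Psmd4, Psmd13, Psmd14, Shfm1, Pomp and Nfe2l1 were added after their values were seen. The rule also names a partner gene that is not reported here. Runs of 75 bases shared with other genes were counted in GENCODE M21 transcripts. The alternatives were pseudocounts of 0.1 and 0.01, no filter, a filter at a mean TPM of 5, quantile normalization, no trend, voom on recovered reads, the replicate block and leaving out each library.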

Additional observations from a re-analysis of the deposited data

How the results depend on the processing

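Psmd10 kept its direction under all 12 alternatives, with log2 changes of 4.51 (quantile normalization) to 5.15 (pseudocount 0.01), and it remained a call under all but the 2 that leave out an AZ20 library. Without AZ20 replicate 1 its log2 change was 4.60 (limma adjusted p = 0.0902) and without AZ20 replicate 2 it was 4.75 (limma adjusted p = 0.0791), so that 0 to 1 proteasome genes were called higher when a library was left out. A lone AZ20 library is assumed there to vary as the Ctrl libraries do, and the cause of the lost call was not tested. With the replicate block, which pairs libraries of the same replicate number, Psmd10 had the same log2 change of 4.67 and a limma adjusted p of 6.03e-18. Its SE was larger there, at 0.255 against 0.214 in the main fit. With 4 libraries the block leaves little spread to measure within a gene. This p therefore rests mostly on variance estimated over all genes, and it is no sign of stronger evidence from the 2 mice. The block left the number of proteasome genes called at 1. It raised that of partners from 1 to 2 (Uba1 and Uba1y) and that of neighbours of Psmd10 from 0 to 1 (Tex13). Calls rose in general with the block. Over all 10316 genes tested it gave 447 calls, against 235 higher and 5 lower in the main fit. Over the 9926 autosomal genes tested it gave 157, against 10 higher and 5 lower. No partner was called (0) without a filter on low TPM, with a mean TPM above 5, with quantile normalization, or when any library was left out (0 to 0). The filter at 5 removes Uba1y from the test, and for the other settings the cause was not tested.

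The median log2 change of the autosomal proteasome genes was 0.02 to 0.06 in the settings with all libraries and -0.13 to 0.12 when 1 library was left out, turning negative without Ctrl replicate 1, where the median over all autosomal genes was 0.077. As a median absolute deviation in place of the SD, the spread of log2 TPM was 0.822 in Ctrl and 0.733 in AZ20 for the 20S core, 0.763 and 0.610 for the base ATPases and 0.712 and 0.706 for the lid, so the lid stood apart by its SD and not by this measure. With 2 libraries a group and 37 and 38 reads of Psmd10 in Ctrl, the size of its fold change is limited by its Ctrl reads.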
